A study of Homo sapiens with 12 samples.

Results

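The matrix metalloproteinases (MMPs), the ADAM and ADAMTS proteinases, the ADAMTS-like proteins and the tissue inhibitors of metalloproteinases (TIMPs) were examined in the RNA of IMR90 ER:RAS cells, sequenced and counted per gene. Members were the protein-coding genes whose symbol is MMP, ADAM, ADAMTS, ADAMTSL or TIMP followed by a number, with at most 1 letter after it. The rule found 70 of the 62069 genes in the count table: 22 MMP, 20 ADAM, 19 ADAMTS, 5 ADAMTSL and 4 TIMP genes. IMR90 cells are human lung fibroblasts, and ER:RAS joins RAS to an estrogen receptor fragment that binds ligand. Adding 4-hydroxytamoxifen (4OHT) therefore switches RAS on and induces oncogene-induced senescence (OIS). The cells of all 4 groups carry ER:RAS. The groups were vector (not induced), vector/4OHT, shXPO7_3/4OHT and shXPO7_5/4OHT, with 3 libraries each; the 4OHT groups received 100 nM and were taken 5 days after induction. XPO7 encodes a nuclear transport receptor, and shXPO7_3 and shXPO7_5 are hairpins against it. Whether a group's libraries stem from different cultures is not stated in the labels, and the p-values cover only their spread, which could be technical.

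MMPs are zinc proteinases that together cleave most proteins of the extracellular matrix, and they are made as proenzymes that must be activated. ADAMs sit in the cell membrane and release growth factors and receptors from the cell surface, ADAMTS enzymes are secreted and process procollagens and proteoglycans, and TIMPs bind the active sites of these enzymes. Senescent fibroblasts are known to secrete several MMPs together with cytokines and growth factors.

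The libraries held 28534141 to 60397769 counts. XPO7 was at 135 CPM (counts scaled to library size with TMM factors) in vector and 137 CPM in vector/4OHT, and at 27.7 CPM with shXPO7_3 and 52.2 CPM with shXPO7_5. All 10 fibroblast markers examined were above 1 CPM in each group, none of the 7 immune markers was, and PECAM1, CDH5, KRT5, SFTPC, CD3E, MS4A1 and MYOG were at 0 in all 12 libraries. Over the whole lists, the summed fibroblast markers were at 24422 to 28279 CPM in vector and 16997 to 18461 CPM in vector/4OHT, and the summed endothelial markers (2 of 6 above 1 CPM, VWF and TIE1) at 3.004 to 4.11 CPM and 8.86 to 10.6 CPM. The summed epithelial markers (3 of 7 above 1 CPM, KRT18, KRT8 and CLDN4) were at 44.8 to 53.6 CPM in vector and 39.2 to 45.6 CPM in vector/4OHT. The summed muscle markers were at 394 to 439 CPM in vector and 176 to 183 CPM in vector/4OHT, with ACTA2, CNN1 and DES called lower. The part of these shifts in the results was not tested. Some libraries stood apart from their group: library A of shXPO7_5/4OHT differed from libraries T and B by a chi-square of 37.8 and 61.7 per gene, against 12.7 between T and B. Library T of shXPO7_3/4OHT differed from A and B by 46.1 and 51.7 per gene, against 4.57 between A and B. Library T of vector differed from A and C by 24.4 and 49.7 per gene, against 10.3 between A and C. Without this library T, 34 members were called in vector/4OHT against vector in place of 35. The share of all genes called in that fit is not given here. A library's deviation from the mean of its own group followed the GC content of the transcripts, with a Spearman correlation across genes from -0.71 (shXPO7_5/4OHT A) to 0.73 (shXPO7_5/4OHT B). Across genes, which are not replicates, this correlation describes the libraries only.

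Of the 70 members, 51 passed the filter on low counts and were tested. ADAM2, ADAM7, ADAM18 and ADAM30, whose known expression is mostly in the testis and epididymis, had no count in any library. MMP12, the macrophage elastase, also had no count under the identifier that the gene tables give it. The count table was made on another annotation and may hold MMP12 under an identifier that these tables do not pair with it, so its 0 was not read as absence. A count of 0 allows a level of up to 3 counts, which was 0.0506 to 0.106 CPM per library; this limit covers counting error only. Another 14 members had counts but too few to test: ADAM20, ADAM21, ADAM29, ADAMTS16, ADAMTS17, ADAMTS18, ADAMTS20, ADAMTSL2, MMP13, MMP20, MMP21, MMP23B, MMP26 and MMP27. Collagenase 3 (MMP13) had 0 to 2 counts in the vector libraries and 4 to 11 in the vector/4OHT libraries. Enamelysin (MMP20), a tooth enamel proteinase, had no count in vector and 1 to 6 counts in the shXPO7_3/4OHT libraries. MMP28 was not analysed here, because the identifier that the gene tables give it matched no row of the count table. Nothing is therefore said about its expression.

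The first comparison, vector/4OHT against vector, asks how these genes change when RAS is switched on. Of the 51 members tested, 35 were called (edgeR's quasi-likelihood test, Benjamini-Hochberg adjusted p under 0.05 over 15284 genes), 20 higher and 15 lower in vector/4OHT. That is 68.6% of the members tested, where 50.9% of all genes tested were called, 24.8% higher and 26.1% lower. Counting only changes of at least 1 on the log2 scale, 20 members (39.2%) were called, against 16.8% of all genes. The median absolute log2 fold change was 0.74 over the members and 0.38 over all genes, while the medians with sign were 0.02 and -0.01. By family, 9 MMPs rose and 2 fell, 3 ADAMs rose and 3 fell, 6 ADAMTSs rose and 5 fell, 3 ADAMTSLs fell and none rose, and 2 TIMPs rose and 2 fell; differences between families were not tested. Of the 51, 43 met the count filter in the libraries of both groups, and 31 of these were called. The share of all genes called under that requirement is not given here, so the 31 are not read as a result about the members. MMP7, MMP8, MMP10, ADAM8 and ADAM28 met it in vector/4OHT but not in vector, ADAM22 in vector but not in vector/4OHT, and MMP9 and MMP25 in neither. The filter took any 3 of the 12 libraries, so a gene below the cutoff in vector had to be higher in libraries of the 4OHT groups to be tested. In bulk RNA, fewer cells of a type and less RNA per cell cannot be told apart.

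**Figure D1:**
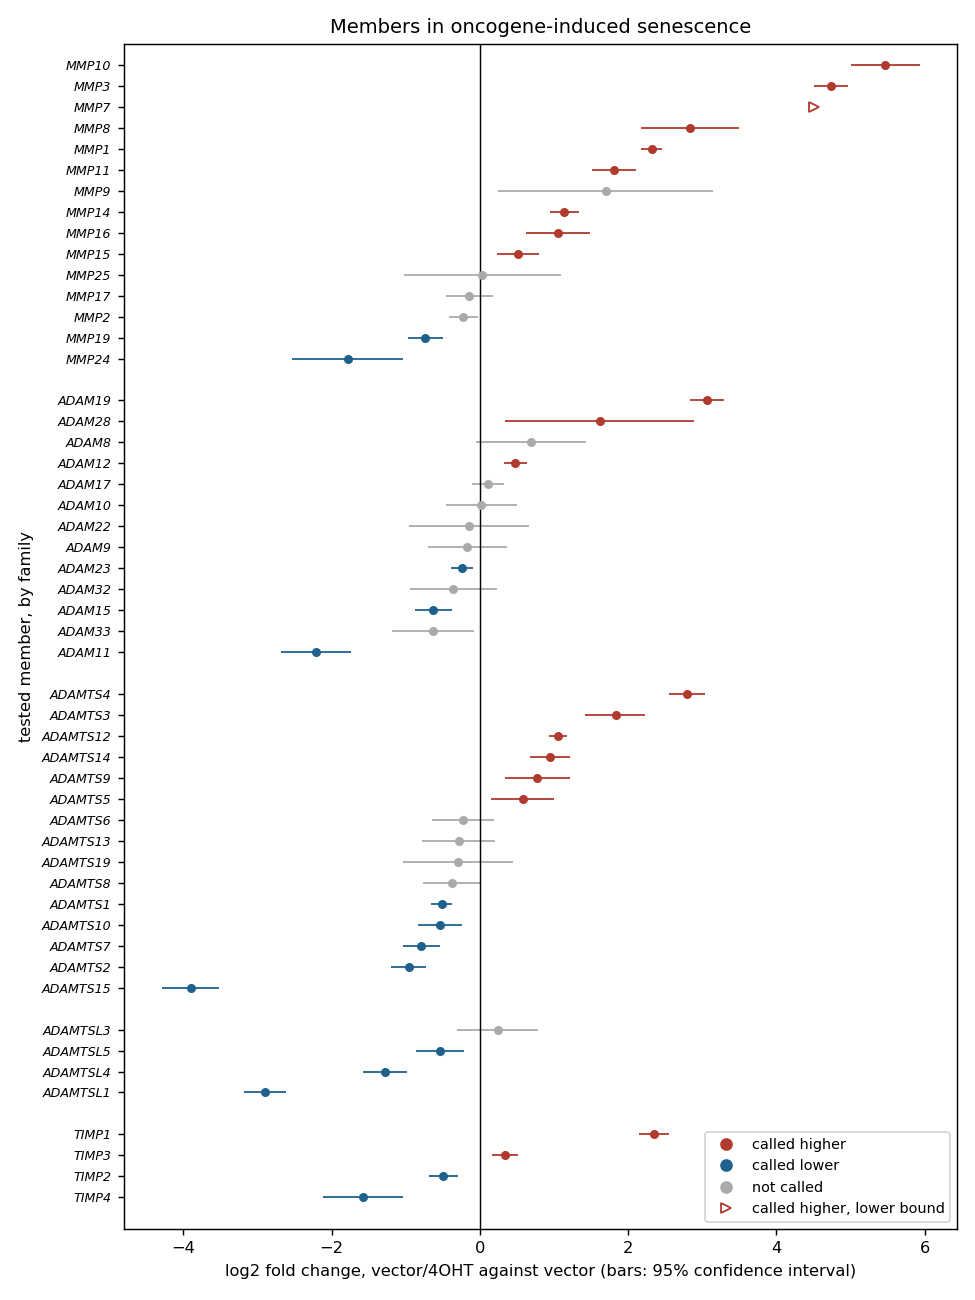
Log2 fold change of each tested member in vector/4OHT against vector (x axis) by family (y axis); points are estimates from edgeR's quasi-likelihood fit, bars their 95% confidence intervals, with 3 libraries per group. The MMP points lie mostly right of 0, with 9 called higher and 2 lower, and the 3 called ADAMTSLs lie left of 0; MMP7, with no count in vector, is drawn at the lower bound of its change, 4.50, with no interval.

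The 5 largest rises among the MMPs were those of genes in 1 cluster. On GRCh38, GENCODE release 29 places 9 MMP genes at chr11:102520508-102955734, all on the minus strand and with no other protein-coding gene in the 435 kb between the first and the last. In order of position these are MMP7, MMP20, MMP27, MMP8, MMP10, MMP1, MMP3, MMP12 and MMP13. The 5 that could be tested were called higher. However, MMP7, MMP8 and MMP10 did not meet the count filter in vector and so had to be higher in libraries of the 4OHT groups to be tested. MMP1 and MMP3 met it in both vector and vector/4OHT.

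Interstitial collagenase (MMP1), which cleaves fibrillar collagen, was at 925, 883 and 873 CPM in the vector libraries T, A and C and at 4271, 4427 and 4648 CPM in the vector/4OHT libraries T, A and B. The lowest vector/4OHT library was above every vector library. The log2 fold change was 2.32 ± 0.06 (SE, n = 3 against 3; adjusted p = 4.46e-11, edgeR's quasi-likelihood test), a 4.98-fold rise of a gene that was already among the most abundant members.

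Stromelysin 1 (MMP3), which cleaves proteoglycans and activates other proMMPs, was at 4.51, 3.72 and 4.14 CPM in vector and at 107, 107 and 114 CPM in vector/4OHT. Its change was 4.73 ± 0.10 (adjusted p = 1.57e-11), or 26.6-fold. Stromelysin 2 (MMP10), a close paralog, was at 0.309, 0.0972 and 0.142 CPM in vector and at 8.31, 7.97 and 7.42 CPM in vector/4OHT, a change of 5.47 ± 0.21 (adjusted p = 8.07e-10). The vector value of MMP10 rests on 19 counts over the 3 libraries. How reads matching several genes were counted is not given, and a split of reads between these paralogs cannot be checked.

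Neutrophil collagenase (MMP8) was at 0.371, 0.243 and 0.227 CPM in vector and at 2.16, 2.02 and 1.84 CPM in vector/4OHT, a change of 2.84 ± 0.30 (adjusted p = 7.44e-06). Matrilysin (MMP7), a small MMP best known from epithelial cells, had no count in any vector library and was at 0.629, 0.532 and 0.706 CPM in vector/4OHT. Against a floor of 3 counts over the vector group (0.0276 CPM) this was at least 22.6-fold higher (adjusted p = 7.3e-06). MMP7 and MMP8 therefore rose to levels that stayed low beside those of MMP1 and MMP3.

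Outside the cluster, the nearest protein-coding genes tested on one side, BIRC2 and TMEM123, were not called (log2 fold changes 0.52 ± 0.28 and -0.30 ± 0.23, adjusted p = 0.134 and 0.295). On the other side DCUN1D5 rose by 0.72 ± 0.07 (adjusted p = 1.75e-06) and DYNC2H1 was not called (0.23 ± 0.35, adjusted p = 0.615). WTAPP1, a pseudogene on the opposite strand that overlaps the stretch from MMP10 to MMP3, was not called (0.57 ± 0.92, adjusted p = 0.628). The strand setting of the counting is not given, so reads of WTAPP1 and of the MMP genes it overlaps cannot be told apart from the counts alone.

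**Figure D2:**
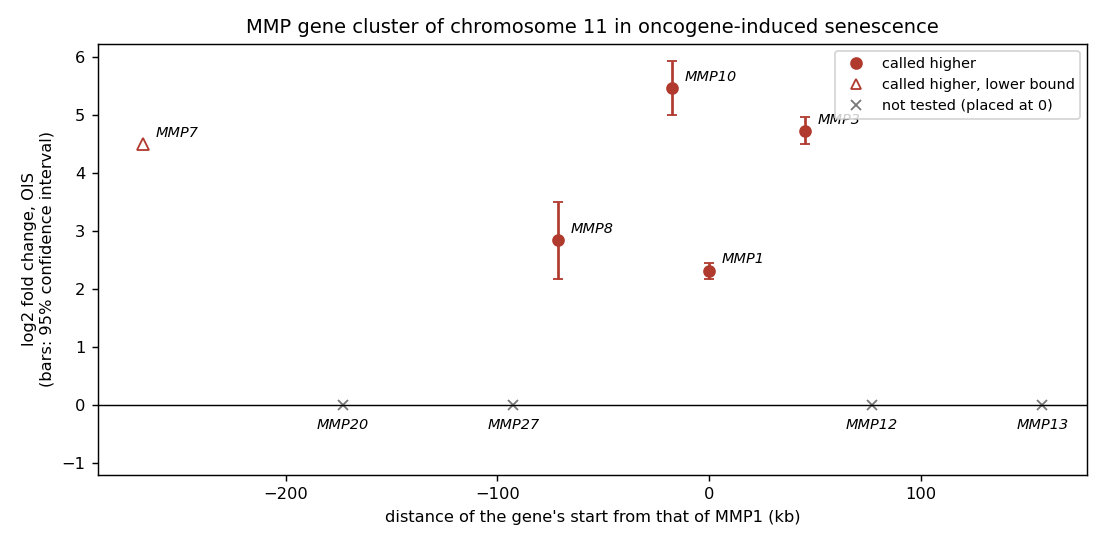
Log2 fold change in vector/4OHT against vector (y axis; bars: 95% confidence interval, 3 libraries per group) by distance of each MMP gene's start from that of MMP1 (x axis, kb). MMP8, MMP10, MMP1 and MMP3 lie at 2.84, 5.47, 2.32 and 4.73; MMP7 is an open triangle at its lower bound of 4.50, and MMP20, MMP27, MMP12 and MMP13 were not tested and are crosses at 0.

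The starts of the cluster's called genes with an entry in RefSeq's promoter windows (GRCh38.p14, 250 bases before the start to 50 after it) are shown, with TIMP1, a member on another chromosome that rose by a like amount to MMP1, for comparison. Capitals mark the matches on either strand to the AP-1 motif TGANTCA (its reverse complement is TGANTCA too) and to the TATA box TATAAA (reverse complement TTTATA), and no AP-1 match overlapped a TATA box match in these windows.
MMP7 promoter, chr11:102530698-102530997, minus strand: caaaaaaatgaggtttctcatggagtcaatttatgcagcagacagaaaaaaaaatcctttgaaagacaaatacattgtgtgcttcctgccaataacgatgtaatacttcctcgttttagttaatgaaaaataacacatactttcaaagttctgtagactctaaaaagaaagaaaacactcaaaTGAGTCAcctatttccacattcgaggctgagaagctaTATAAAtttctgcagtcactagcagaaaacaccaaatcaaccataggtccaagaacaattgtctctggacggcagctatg
MMP10 promoter, chr11:102780579-102780878, minus strand: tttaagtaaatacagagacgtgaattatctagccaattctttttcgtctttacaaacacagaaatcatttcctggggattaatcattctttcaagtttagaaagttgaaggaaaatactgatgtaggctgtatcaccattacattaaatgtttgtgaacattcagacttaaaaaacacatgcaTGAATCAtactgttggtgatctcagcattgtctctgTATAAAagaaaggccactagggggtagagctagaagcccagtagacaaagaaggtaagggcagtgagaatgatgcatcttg
MMP8 promoter, chr11:102724905-102725204, minus strand: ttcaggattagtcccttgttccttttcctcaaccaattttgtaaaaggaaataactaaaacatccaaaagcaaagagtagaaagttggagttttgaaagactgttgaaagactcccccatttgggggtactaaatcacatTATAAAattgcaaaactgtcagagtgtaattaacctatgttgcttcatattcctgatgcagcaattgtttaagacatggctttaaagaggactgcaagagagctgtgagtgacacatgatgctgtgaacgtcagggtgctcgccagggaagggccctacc
TIMP1 promoter, chrX:47582186-47582485, plus strand: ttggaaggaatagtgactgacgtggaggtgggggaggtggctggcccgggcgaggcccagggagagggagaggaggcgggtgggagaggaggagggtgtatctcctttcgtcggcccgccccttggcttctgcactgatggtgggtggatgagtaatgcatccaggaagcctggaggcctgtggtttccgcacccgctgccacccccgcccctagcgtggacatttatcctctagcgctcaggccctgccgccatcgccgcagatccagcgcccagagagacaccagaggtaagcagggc

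The MMP7 window held TGAGTCA at -67 to -61 and TATAAA at -30 to -25, where the start is 0. The MMP10 window held TGAATCA at the same distance, -67 to -61, and TATAAA at -31 to -26. In the MMP8 window only the TATA box letters were found, further out at -110 to -105, and in the TIMP1 window neither motif had an exact match. Only exact matches were searched for. A near match to the AP-1 motif, such as the tgagtaa in the TIMP1 window, was not counted, so a window without a match is not shown to lack a site. Promoter windows were at hand for 44 of the 70 members, in 45 windows, since ADAMTS10 has 2. MMP1 and MMP3 had no entry. AP-1 letters were in 3 of the 13 windows of members called higher (MMP7, MMP10 and ADAMTS12), in 0 of the 11 windows of members called lower, in 0 of 8 of members not called and in 1 of 13 of members not tested (MMP20). Of all 35116 windows, 7.71% held them. TATA box letters were in 3 of the 13 windows of members called higher (MMP7, MMP8 and MMP10), 1 of 11 of those called lower, 0 of 8 not called and 5 of 13 not tested, against 11.5% of all windows. MMP7, MMP8 and MMP10 did not meet the count filter in vector and had to be higher in libraries of the 4OHT groups to be tested. The shares by call are therefore not read as a result. These matches describe letters in a window, and nothing was measured at these sites.

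The membrane-type MMPs, which act at the cell surface, did not move as 1 group. MMP14, the activator of proMMP2 and a collagenase itself, was at 1141, 1083 and 999 CPM in vector and at 2381, 2347 and 2387 CPM in vector/4OHT, a rise of 1.14 ± 0.09 (adjusted p = 4.97e-07). MMP16 rose by 1.06 ± 0.20 (adjusted p = 0.000775) and MMP15 by 0.52 ± 0.13 (adjusted p = 0.00537). MMP24 was at 3.46, 2.02 and 1.64 CPM in vector and at 0.738, 0.425 and 0.827 CPM in vector/4OHT, and fell by 1.78 ± 0.35 (adjusted p = 0.000973). MMP24OS, a gene on the opposite strand that overlaps MMP24, was at 70.0 and 63.8 CPM in these groups and was not called (-0.13 ± 0.09, adjusted p = 0.248). Without the strand setting, reads of this far more abundant neighbour cannot be told apart from those of MMP24. MMP17 and MMP25, which are held by a lipid anchor, were not called (-0.14 ± 0.15 and 0.03 ± 0.48).

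Stromelysin 3 (MMP11), which is activated inside the cell by furin, was at 5.31, 6.92 and 5.72 CPM in vector and at 19.2, 21.7 and 22.2 CPM in vector/4OHT, a rise of 1.81 ± 0.13 (adjusted p = 2.96e-07). MMP19 fell by 0.74 ± 0.11 (adjusted p = 0.000108), from 22.8, 20.5 and 18.5 CPM to 11.8, 12.02 and 13.2 CPM. The gelatinases, which degrade denatured collagen and basement membrane, were not called. Gelatinase A (MMP2) was at 1212, 1124 and 1015 CPM in vector and at 966, 948 and 960 CPM in vector/4OHT. Every vector library was above every vector/4OHT library, but the difference of -0.22 ± 0.09 missed the threshold (adjusted p = 0.0558), and over the alternative settings its adjusted p ran from 0.00844 to 0.198, with 6 of 14 calling it lower. Gelatinase B (MMP9) was near the limit of detection, with 6 counts over the vector group and 22 over vector/4OHT (1.70 ± 0.67, adjusted p = 0.0504; called under 4 of 12 settings).

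Among the ADAMs, ADAM19 (meltrin beta, a sheddase of neuregulins; GRCh38 chr5:157395534-157575775) stood out. It was at 223, 190 and 185 CPM in vector and at 1698, 1640 and 1664 CPM in vector/4OHT. The rise was 3.07 ± 0.10, or 8.38-fold (adjusted p = 2.42e-10). ADAM12 (meltrin alpha) rose by 0.48 ± 0.07 (adjusted p = 9.71e-05), from 31.2, 26.9 and 28.5 CPM to 40.2, 40.9 and 39.6 CPM. ADAM28 was called higher on 14 counts over the vector group and 46 over vector/4OHT (1.62 ± 0.58, adjusted p = 0.0358); it lost its call in 5 of the 6 fits that left out 1 library.

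The 3 ADAMs that fell were ADAM11, ADAM15 and ADAM23. ADAM11 and ADAM23 lack a working catalytic site and serve in cell adhesion. ADAM11 was at 2.81, 2.45 and 2.24 CPM in vector and at 0.465, 0.780 and 0.424 CPM in vector/4OHT, a fall of 2.21 on the log2 scale (SE 0.22, adjusted p = 3.41e-06). ADAM15 fell by 0.63 ± 0.11 (adjusted p = 0.000533) and ADAM23 by 0.24 ± 0.07 (adjusted p = 0.0112). ADAM23 lost its call in 3 of 14 alternative settings. The main general sheddases were not called. ADAM10, the alpha-secretase that also cleaves Notch, was at 129, 183 and 219 CPM in vector and at 187, 187 and 165 CPM in vector/4OHT (0.02 ± 0.22, 95% confidence interval -0.46 to 0.50). ADAM17, which releases TNF and EGF receptor ligands, was at 36.4, 41.0 and 40.3 CPM and at 43.7, 42.9 and 40.6 CPM (0.11 ± 0.10, 95% confidence interval -0.11 to 0.33). ADAM9 was not called either (-0.17 ± 0.24).

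Of the aggrecanases, which cut the proteoglycans of cartilage and other matrices, ADAMTS4 was at 2.63, 2.33 and 2.30 CPM in vector and at 17.9, 16.2 and 16.2 CPM in vector/4OHT, a rise of 2.79 ± 0.11 (adjusted p = 1.05e-09). ADAMTS5 rose by 0.58 ± 0.20 (adjusted p = 0.0277), a call that 4 of the 6 fits without 1 library did not make. ADAMTS1, its neighbour on chromosome 21 at a distance of 72.5 kb, fell by 0.51 ± 0.06 (adjusted p = 3e-05). ADAMTS15 showed the largest fall of any member, from 14.6, 15.0 and 11.5 CPM to 0.793, 0.922 and 1.01 CPM, and reached 6.62% of its vector level (-3.90 ± 0.18, adjusted p = 3.3e-09). ADAMTS8, 20 kb from ADAMTS15 on chromosome 11, was not called (-0.37 ± 0.18, adjusted p = 0.0939).

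The procollagen N-proteinases, which trim the ends of fibrillar procollagens, also moved in both directions. ADAMTS2, the main enzyme for collagen I, was at 118, 98.01 and 93.8 CPM in vector and at 54.3, 51.6 and 53.0 CPM in vector/4OHT, a fall of 0.96 on the log2 scale (SE 0.11, adjusted p = 1.07e-05). ADAMTS3, which also processes VEGF-C, was at 3.28, 4.52 and 4.85 CPM and at 15.8, 15.5 and 13.8 CPM, a rise of 1.83 ± 0.19 (adjusted p = 5.13e-06). ADAMTS14 rose by 0.94 ± 0.12 (adjusted p = 4.45e-05). ADAMTS12, a COMP-cleaving enzyme, was at 139, 128 and 126 CPM and at 274, 273 and 270 CPM, a rise of 1.06 ± 0.06 (adjusted p = 1.82e-08), while ADAMTS7, which cleaves the same substrate, fell by 0.79 ± 0.12 (adjusted p = 0.000112). ADAMTS13, known for cleaving von Willebrand factor, was near 1 CPM and not called.

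The ADAMTSL genes encode matrix glycoproteins without a proteinase domain, several of which bind fibrillin. ADAMTSL1 was at 67.9, 60.3 and 53.9 CPM in vector and at 7.82, 8.93 and 7.63 CPM in vector/4OHT, or 13.4% of its vector level (-2.90 ± 0.13, adjusted p = 2.56e-09). ADAMTSL4 fell by 1.28 ± 0.13 (adjusted p = 6.99e-06) and ADAMTSL5 by 0.54 ± 0.15 (adjusted p = 0.00821). ADAMTSL3 was not called (0.24 ± 0.25).

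All 4 TIMPs were called, 2 in each direction. TIMP1, a secreted inhibitor of most MMPs (GRCh38 chrX:47582313-47586789), was at 958, 894 and 862 CPM in vector and at 4484, 4597 and 4733 CPM in vector/4OHT, a rise of 2.35 ± 0.09 (adjusted p = 1.06e-09). TIMP3, which is bound to the matrix and also inhibits ADAM17, was at 382, 348 and 330 CPM and at 449, 426 and 466 CPM, a rise of 0.34 ± 0.08 (adjusted p = 0.00416). TIMP3 lost its call with upper-quartile factors (0.24, adjusted p = 0.0753). TIMP2, which inhibits MMP14 and with it forms the complex that activates proMMP2 (GRCh38 chr17:78852977-78925387), was at 1257, 1104 and 1010 CPM and at 824, 780 and 795 CPM, a fall of 0.49 on the log2 scale (SE 0.09, adjusted p = 0.000721). TIMP4 fell by 1.57 ± 0.25 (adjusted p = 0.000198), from 3.62, 2.09 and 2.38 CPM to 0.847, 0.744 and 1.07 CPM.

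Levels of different genes were compared only per kb of exon sequence, as CPM per kb. On this scale TIMP1, MMP1 and MMP14 were the top 3 members, in this order, in each of the 4 groups, at 587, 454 and 241 CPM per kb in vector and 2988, 2258 and 531 CPM per kb in vector/4OHT. ADAM19 moved from the 9th to the 4th place, from 25.8 ± 2.66 to 216 ± 3.74 CPM per kb (SD, n = 3). In vector, MMP14 (241 ± 16.0) and MMP2 (226 ± 20.1) had overlapping ranges over the libraries, though MMP14 was above MMP2 within each of the 3. ADAM9 (78.2 ± 19.5) and TIMP3 (76.8 ± 5.81) did not differ beyond their spread, and their order changed between libraries. The ratio of TIMP1 to MMP1 per kb was 1.29 ± 0.03 in vector and 1.32 ± 0.02 in vector/4OHT. With shXPO7_3 it was 1.14 ± 0.07, at 1.06 to 1.2 over the libraries against 1.3 to 1.34 in vector/4OHT. With shXPO7_5 it was 1.44 ± 0.22, at 1.27 to 1.69. These differences in the ratio were not tested. The ratio of TIMP2 to MMP14 was 0.827 ± 0.040 in vector and 0.267 ± 0.006 in vector/4OHT. It stayed at 0.267 ± 0.008 with shXPO7_3 and 0.266 ± 0.009 with shXPO7_5. Summed over all members, the level was 0.725% ± 0.026 of the TMM-scaled library in vector and 1.69% ± 0.026 in vector/4OHT, with MMP1 and TIMP1 at 26.3% and 27.2% of the sum in vector/4OHT against 12.3% and 12.5% in vector. These are ratios of RNA, and nothing here measured protein or activity.

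Other genes of metalloproteinase control were taken from a list of 56, of which 36 could be tested. In vector/4OHT against vector, 17 rose, 10 fell and 9 were not called, beside 24.8% of all genes called higher and 26.1% lower. The counts by role are small and were not compared with each other. Of the inhibitors other than TIMPs, 3 of 5 rose and 2 fell: TFPI2, a serine proteinase inhibitor that also binds MMPs, was at 67.1, 61.6 and 68.8 CPM in vector and at 680, 658 and 667 CPM in vector/4OHT (3.34 ± 0.08, adjusted p = 3.03e-11). RECK, a membrane-anchored inhibitor of MMPs, fell by 1.28 ± 0.10 (adjusted p = 4.2e-07). Of the genes for proenzyme activation, 4 of 6 rose and none fell, among them PLAU (urokinase) by 2.46 ± 0.09 (adjusted p = 6.15e-10) and FURIN by 0.54 ± 0.10 (adjusted p = 0.000522). Of the partners of ADAM17 and ADAM10, 3 of 7 rose and 1 fell; TSPAN10, a tetraspanin that binds ADAM10, fell by 1.84 ± 0.14 (adjusted p = 4.71e-07).

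Of 8 shed or cleaved substrates tested, 6 rose and 2 fell. Epiregulin (EREG) and amphiregulin (AREG), EGF receptor ligands that ADAM17 releases, rose. EREG was at 9.98, 10.9 and 13.7 CPM in vector and at 298, 294 and 272 CPM in vector/4OHT (4.64 ± 0.16, adjusted p = 2.61e-10). AREG had 2 counts over the vector group and 387 over vector/4OHT, a ratio of 184 with an exact counting interval of 50.6 to 1530 (adjusted p = 5.67e-09). Aggrecan (ACAN), the substrate that names the aggrecanases, was at 17.4, 13.8 and 14.9 CPM in vector and at 0.273, 0.106 and 0.222 CPM in vector/4OHT (-6.18 ± 0.34, adjusted p = 1.91e-08). PCOLCE2, an enhancer of procollagen C-proteinases, fell by 2.26 ± 0.17 (adjusted p = 4.09e-07). Of the genes for inducers and clearance 1 rose and 2 fell of 5, of the astacin proteinases and their enhancers 2 fell of 3, and of the relatives outside the naming rule 1 fell of 2.

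The second question was whether knockdown of XPO7 in induced cells changed these genes. Each shRNA group was compared with the same vector/4OHT libraries, which are also the induced side of the OIS comparison, so the comparisons are not independent and their values are only set side by side. With shXPO7_3, 0 of the 51 members were called by edgeR's quasi-likelihood test, where 0.124% of all genes were. At an unadjusted p under 0.05 there were 11 members (6.41% of all genes), and DESeq2 called 4 (0.576% of all genes). With shXPO7_5, 3 members were called, all higher: MMP11, ADAMTS14 and ADAMTS8, that is 5.88% of those tested against 0.589% of all genes, and DESeq2 called 6 (2.79% of all genes).

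MMP11 was at 19.2, 21.7 and 22.2 CPM in the vector/4OHT libraries T, A and B, at 39.2, 33.5 and 30.2 CPM with shXPO7_3 and at 38.4, 39.0 and 47.2 CPM with shXPO7_5. Every knockdown library was above every vector/4OHT library. Its change was 0.98 ± 0.13 with shXPO7_5 (adjusted p = 0.0115) and 0.70 ± 0.13 with shXPO7_3 (adjusted p = 0.0751). Since MMP11 also rose in OIS, its level with either hairpin was further from that of the uninduced cells.

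ADAMTS14 was at 5.55, 4.57 and 4.38 CPM in vector/4OHT, at 6.64, 5.16 and 5.78 CPM with shXPO7_3 and at 8.25, 8.21 and 8.14 CPM with shXPO7_5. The 3 shXPO7_5 libraries lay above all others. The change was 0.76 ± 0.12 with shXPO7_5 (adjusted p = 0.0164) and 0.28 ± 0.12 with shXPO7_3 (adjusted p = 0.668). ADAMTS8, an enzyme of the proteoglycan-cleaving branch, was at 2.46, 3.33 and 2.62 CPM, at 3.57, 2.63 and 2.66 CPM and at 4.99, 4.53 and 6.12 CPM in these groups. It rose by 0.91 ± 0.17 with shXPO7_5 (adjusted p = 0.0418), and its change with shXPO7_3 was 0.08 ± 0.18 (adjusted p = 0.999).

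**Figure D3:**
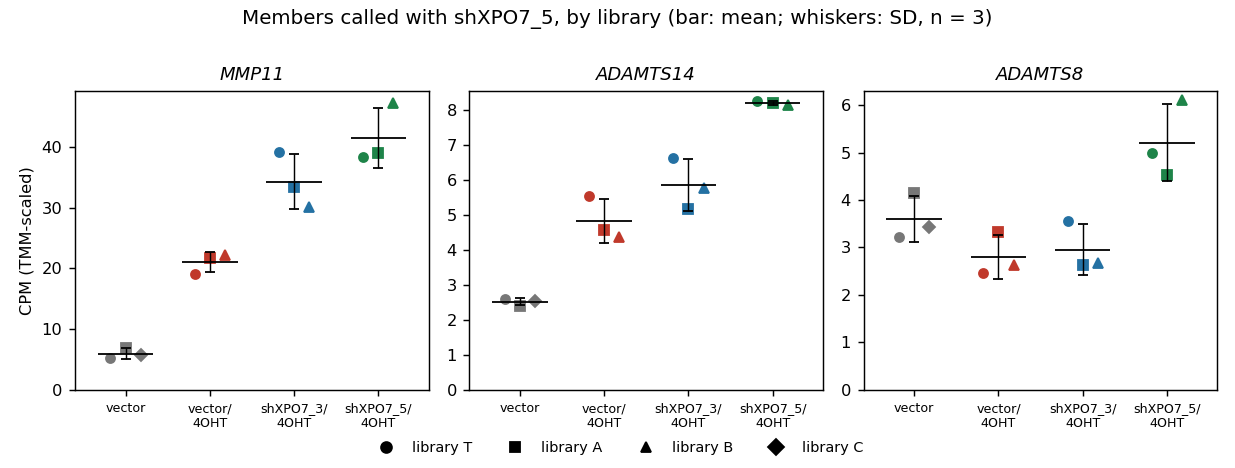
Level in CPM (y axes, TMM-scaled, from 0) of the 3 members called with shXPO7_5, in the 12 libraries by group (x axes); symbols mark the library letter, lines the mean and whiskers the SD of 3 libraries. MMP11 is at 30.2 to 39.2 CPM with shXPO7_3 and 38.4 to 47.2 CPM with shXPO7_5, above 19.2 to 22.2 CPM in vector/4OHT, while ADAMTS8 overlaps vector/4OHT with shXPO7_3 but not with shXPO7_5.

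Most of these calls were lost when 1 library was left out, while the changes stayed of like size: over the 6 such fits they were 0.88 to 1.04 for MMP11, 0.69 to 0.88 for ADAMTS14 and 0.77 to 1.04 for ADAMTS8. In shXPO7_5/4OHT, the deviation of library A followed GC content at -0.71 and that of library B at 0.73. Without library A, 21 members were called with shXPO7_5, 16 higher and 5 lower, but 23.0% of all genes were then called too. The members called higher in that fit included MMP14 (0.34 ± 0.08, adjusted p = 0.032), MMP2 (0.30 ± 0.09, adjusted p = 0.0394), ADAM19 (0.31 ± 0.09, adjusted p = 0.0413) and TIMP2 (0.31 ± 0.09, adjusted p = 0.0403), and those called lower ADAM10 (-0.68 ± 0.21, adjusted p = 0.043) and ADAM9 (-0.76 ± 0.23, adjusted p = 0.0414). With all libraries, in a fit corrected for GC content and transcript length, none of these 6 was called with shXPO7_5, at 0.03 for MMP14, 0.05 for MMP2, 0.08 for ADAM19, 0.12 for TIMP2 and -0.16 for both ADAM10 and ADAM9. Without any of the other libraries of these groups, 0 or 1 member was called: 0 without vector/4OHT T, vector/4OHT A, shXPO7_5/4OHT T or shXPO7_5/4OHT B, and 1 (MMP11) without vector/4OHT B. The share of all genes called in these fits is not given here, so their counts are not read as results about the members. With the same correction, 5 members were called with shXPO7_5, MMP11, ADAMTS14 and ADAMTS8 among them, and 8 with shXPO7_3, 7 of them higher, where MMP11 and MMP3 were included. The correction raised the calls over all genes too, to 3.36% and 2.60%.

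With all libraries in the fit, only 5 of the 15284 genes were called lower with shXPO7_3 and 17 with shXPO7_5. None of the 9 MMPs called higher in OIS was among them, which with so few such calls is not read as a result about the MMPs. Of the 9 MMPs, MMP8 was below 0 with both hairpins (-0.49 ± 0.24 with shXPO7_3 and -0.34 ± 0.24 with shXPO7_5), and MMP16 with shXPO7_5 (-0.39 ± 0.20). Without library A of shXPO7_5/4OHT, MMP16 was called lower (-0.60 ± 0.19, adjusted p = 0.0437, edgeR's quasi-likelihood test). With all libraries and the GC content and length correction it was at -0.03. MMP3 was at 161, 148 and 141 CPM with shXPO7_3 and at 132, 114 and 115 CPM with shXPO7_5, and its changes of 0.46 ± 0.08 (adjusted p = 0.0751) and 0.14 ± 0.08 (adjusted p = 0.299) were not called. MMP1 was at 5078, 4984 and 4782 CPM and at 4715, 4382 and 4311 CPM, with changes of 0.15 ± 0.06 (95% confidence interval 0.03 to 0.28) and 0.01 ± 0.06 (95% confidence interval -0.12 to 0.13). MMP10 was at 11.6, 11.8 and 10.97 CPM and at 8.83, 10.0 and 10.1 CPM (0.53 ± 0.13, adjusted p = 0.197, and 0.29 ± 0.13, adjusted p = 0.229). With shXPO7_3, 14 of the 15 MMPs tested had a log2 fold change above 0, with a median of 0.26, while 48.9% of all genes were above 0, with a median of 0; with shXPO7_5 the figures were 12 of 15, a median of 0.22, and 50.7% of all genes with a median of 0.01. MMP9 and MMP25 are among those above 0 with both hairpins. They met the count filter in neither vector nor vector/4OHT, so they had to be higher in knockdown libraries to be tested. Under the filter of 1 CPM in 6 libraries, which neither met, 10 of 11 MMPs were above 0 with shXPO7_3 and 9 of 11 with shXPO7_5. Over the scaling, filter, model and library alternatives the MMP median stayed above 0, between 0.18 and 0.28 with shXPO7_3 and between 0.16 and 0.28 with shXPO7_5.

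TIMP1 was at 4765, 4126 and 4337 CPM with shXPO7_3 (-0.06 ± 0.09, 95% confidence interval -0.26 to 0.13) and at 5051, 4369 and 5683 CPM with shXPO7_5 (0.13 ± 0.09, 95% confidence interval -0.07 to 0.32). ADAM19 changed by 0.04 ± 0.09 (95% confidence interval -0.17 to 0.25) and 0.24 ± 0.10 (95% confidence interval 0.03 to 0.44). ADAMTS12, not called, was above every vector/4OHT library in every knockdown library, at 315 to 331 CPM with shXPO7_3 and 304 to 325 CPM with shXPO7_5 against 270 to 274 CPM (0.24 ± 0.06, adjusted p = 0.193, and 0.20 ± 0.06, adjusted p = 0.124). Beside 0.124% and 0.589% of all genes, 0 of the 36 control genes tested were called with shXPO7_3 and 1 with shXPO7_5. This was A2M, a broad proteinase inhibitor that traps MMPs, at 11.1, 10.9 and 10.7 CPM in vector/4OHT, 17.2, 14.8 and 14.4 CPM with shXPO7_3 and 20.01, 17.5 and 17.7 CPM with shXPO7_5 (0.76 ± 0.10, adjusted p = 0.0104).

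**Figure D4:**
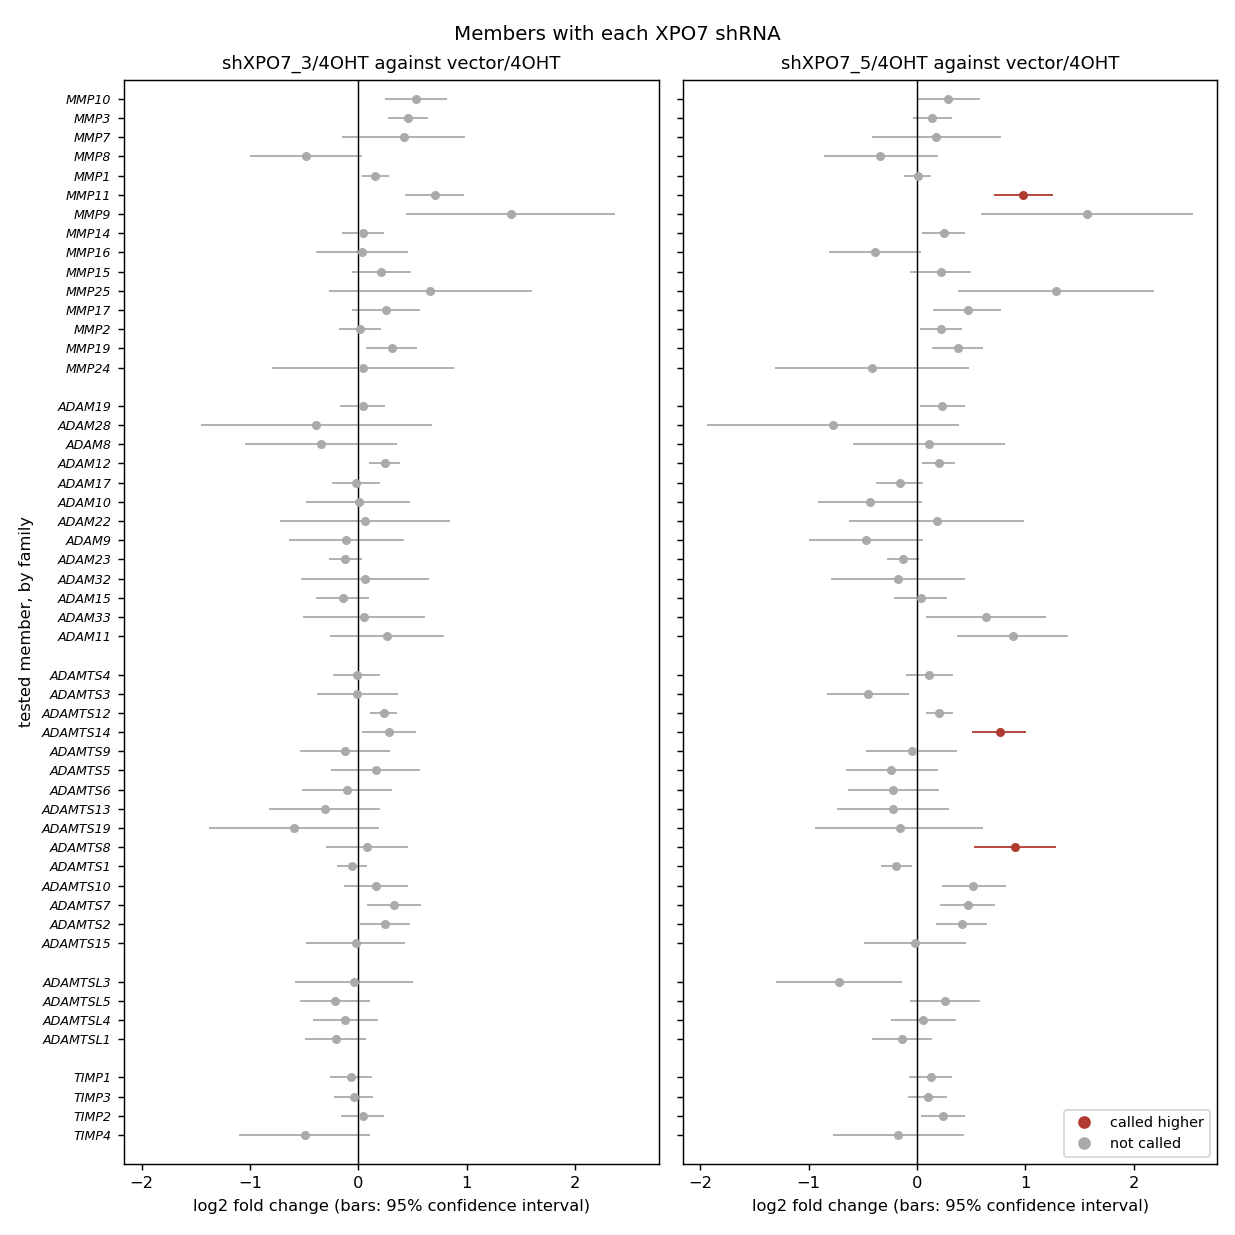
Log2 fold change against vector/4OHT (x axes; bars: 95% confidence interval, 3 libraries per group) of each tested member by family (y axis), with shXPO7_3 on the left and shXPO7_5 on the right. Red marks the 3 members called with shXPO7_5, MMP11, ADAMTS14 and ADAMTS8, at 0.98, 0.76 and 0.91. Right of 0 lie 14 of the 15 MMPs with shXPO7_3 and 12 of 15 with shXPO7_5. MMP9 and MMP25 are among them and met the count filter only through knockdown libraries.

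The hairpins were also compared with each other. In shXPO7_5/4OHT against shXPO7_3/4OHT, 0 members were called by edgeR's quasi-likelihood test, where 0.0131% of all genes were. At an unadjusted p under 0.05 there were 14 (11.9% of all genes), and DESeq2 called 1, ADAMTS8 (0.177% of all genes). The members with the smallest p were ADAMTS8, higher with shXPO7_5 by 0.83 ± 0.17 (95% confidence interval 0.45 to 1.20, adjusted p = 0.31), ADAMTS14, higher by 0.48 ± 0.11 (0.24 to 0.73, adjusted p = 0.346), and MMP3, lower by 0.32 ± 0.08 (-0.50 to -0.14, adjusted p = 0.388). So the call of ADAMTS8 and ADAMTS14 with one hairpin and not the other was not itself a called difference. MMP11 differed by 0.28 ± 0.12 (0.01 to 0.55, adjusted p = 0.388).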

How the data were processed

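Library preparation used Illumina's stranded mRNA kit. The authors deposited raw counts of reads per gene for 12 libraries in 4 groups of 3, taken from the sample labels. The study uses "vector" for its nontargeting control, here the groups without a hairpin against XPO7. Tools named in the submitters' processing notes are featureCounts 1.18.0, TopHat2 2.0.11 and CASAVA 1.8.4, with the build GRCh37. Which annotation and strand setting were used, and how reads with more than 1 match were treated, is not given in the sources used here.

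All 92 spike-in entries were left out, and genes were matched by Ensembl identifier to GENCODE release 29 (GRCh38), which gave symbols, positions and exon lengths. Counts were filtered with filterByExpr, scaled by TMM and fitted for all 12 libraries together by edgeR 4.0.16 (quasi-likelihood test, no covariates) in R 4.3.3 with limma 3.58.1, with the Benjamini-Hochberg adjustment over 15284 genes and a threshold of 0.05. DESeq2 1.42.0 was an alternative. The filter asked for about 0.283 CPM in 3 libraries, so changes of genes below that level could not be seen. An exact permutation test of 3 against 3 libraries cannot go below p = 0.1. The fits were tested on simulated data. Sequences are RefSeq's.

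Members, gene lists and the rule for named genes were chosen with earlier results of these data known. Named were the TIMPs, MMP1, MMP2, MMP3, MMP9, MMP14, ADAM10 and ADAM17, the 3 largest called rises and falls per family in OIS, called members (or the 3 smallest p) in each knockdown comparison, the 3 largest called rises and falls among the control genes in OIS and the control genes called in a knockdown. ADAM9, ADAMTS1, ADAMTS5, ADAMTS13, MMP8, MMP15, MMP16, MMP17, MMP25, ADAMTSL3, PLAU, FURIN and RECK and the cluster's neighbours were added for their roles or positions after their values were seen, as were the members quoted without library A of shXPO7_5/4OHT. Results were recomputed with upper-quartile and RLE factors, looser and stricter count filters, DESeq2, a replicate block, a fit to the groups compared, each library left out, a correction for GC content and length, and a minimum log2 fold change of 1. Leaving out libraries of the groups not compared was added after seeing the data.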

Additional observations from a re-analysis of the deposited data

Results flagged for a closer look

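ADAMTSL5, a matrix glycoprotein without a proteinase domain, had libraries on opposite sides of the vector/4OHT mean with the hairpins, though with neither was it called. All 3 shXPO7_3/4OHT libraries (3.84, 3.17 and 3.39 CPM) were below the mean of vector/4OHT and all 3 shXPO7_5/4OHT libraries (4.55, 4.53 and 5.35 CPM) above it, where the vector/4OHT libraries were at 3.77, 3.58 and 4.64 CPM. Its log2 fold changes were -0.21 ± 0.15 and 0.26 ± 0.15, and libraries of both hairpins overlapped those of vector/4OHT. The difference between the hairpins, shXPO7_5 against shXPO7_3, was 0.47 ± 0.15 on the log2 scale, with a 95% confidence interval of 0.15 to 0.80, and failed the correction (adjusted p = 0.388, edgeR's quasi-likelihood test). Once GC content and length were corrected for, the opposite signs were lost, at -0.25 with shXPO7_3 and -0.04 with shXPO7_5, and the difference was 0.21 (adjusted p = 0.524).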

How the results depend on the processing

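In OIS, 32 to 39 members were called under the alternatives other than the fold threshold, and 33 to 38 with 1 library left out. Requiring a change of at least 1 left 20, where 16.8% of all genes were called. Each of the 35 members called in OIS that could be tested kept its sign in each fit, except that signs were not compared in the fits without a library of another group. With shXPO7_3 the count of 0 became 2 with no filter beyond 1 count and stayed at 0 with 1 library left out. It became 4 with DESeq2 (0.576% of all genes) and 8 with the correction for GC content and length (2.60% of all genes). With shXPO7_5 the count of 3 became 6 with DESeq2 (2.79% of all genes) and 5 with the correction (3.36% of all genes). It became 1 in the fit to only the 2 groups compared, 0 with a minimum log2 fold change of 1, and 0 to 21 with 1 library left out. The 21 came without shXPO7_5/4OHT A, where 23.0% of all genes were called. Between the hairpins the count of 0 became 1 with no filter beyond 1 count and 1 with DESeq2 (0.177% of all genes). For the other settings the share of all genes called is not given here. Their counts are therefore not read as results about the members. The cause of these shifts was not tested. The replicate block gave 36 calls in OIS, 0 with shXPO7_3, 3 with shXPO7_5 and 0 between the hairpins; with shXPO7_5 it kept 2 of the 3 calls, adding ADAMTS2 in place of ADAMTS8 (0.91, adjusted p = 0.0558). Libraries with the same letter did not deviate together in every pair (correlations from -0.23 to 0.37), so the letters were treated as names. ADAM10 in OIS, not called, changed sign with upper-quartile factors (-0.07), with 1 CPM in 6 libraries (-0.01), with the correction (-0.03) and over the fits without 1 library (-0.16 to 0.20). ADAMTS8 with shXPO7_3 ran from -0.08 to 0.21 without 1 library, and ADAMTS12 between the hairpins was 0.01 with upper-quartile factors. Depth limits ADAM28, MMP9, MMP7 and the 19 members not tested.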
